A study of Mus with 12 samples.

Results

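The 46 interferon-stimulated genes described here were chosen by name from a fixed list of gene symbols, and all 46 had a row among the 25247 genes measured in mouse blood. None of the symbols had more than 1 row, and the rule used names only. Blood RNA came from female BALB/c mice that entered the experiment at 6 weeks of age, with 12 libraries in 4 groups of 3 libraries. Solvent mice had only the acetone and olive oil vehicle put on the shaved back and an ear. DNCB mice were sensitised on the same skin with 1% 2,4-dinitrochlorobenzene, a contact allergen, and then challenged with 0.5% DNCB, which gives an inflamed, eczema-like skin. The scMSC and scivMSC mice had the same DNCB course and also 4 doses of 2000000 human umbilical cord mesenchymal stem cells (MSC), a cell type known for damping immune responses. In scMSC the whole dose of 100 µl went under the skin beside the inflamed area. In scivMSC 50 µl went under the skin and 50 µl into the tail vein. There was no group with MSC and no DNCB, and no group injected with the cell carrier alone, so the effect of MSC is seen only on top of DNCB. Blood was taken on day 30.

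Interferons are secreted proteins that cells release on sensing viral nucleic acid or on immune activation. Type I interferons and interferon gamma act through separate receptors and their JAK kinases, and the type I pathway uses a transcription factor complex that contains IRF9. The pathways switch on a shared set of genes that encode nucleic acid sensors, antiviral effectors, ubiquitin-like modifiers, transcription factors that feed back on the response, and GTPases that attack intracellular pathogens. Leukocytes express such genes, and a level in whole blood mixes all the cell types present. Which blood cells the RNA of each member came from was not tested.

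The 46 genes fell into 5 roles. The 12 sensors and nucleic acid enzymes were Ifih1, Dhx58, Zbp1, Eif2ak2, Oas1a, Oas1g, Oas2, Oas3, Oasl1, Oasl2, Adar and Samhd1. The 17 effectors were Ifit1, Ifit2, Ifit3, Ifit3b, Isg20, Mx1, Mx2, Rsad2, Cmpk2, Bst2, Xaf1, Ifi44, Ifi35, Ifi27l2a, Rtp4, Ly6e and Lgals3bp, a group that also takes members of less settled function. The 8 modifiers were Isg15, Usp18, Herc6, Trim25, Trim30a, Dtx3l, Parp9 and Parp14. The 3 transcription factors were Irf1, Irf7 and Irf9, and the 6 GTPases were Gbp2, Gbp3, Gbp7, Igtp, Irgm1 and Ifi47.

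Levels are given as FPKM, fragments counted relative to gene length and to the size of the library, so they can be compared between genes. Library totals ran from 52179764 to 65139421 estimated counts, and haemoglobin genes, the product of red cells, took 78.4% to 89.0% of them. The haemoglobin share averaged 83.2% in Solvent, 81.2% in DNCB, 85.6% in scMSC and 87.3% in scivMSC, which left 5843407 to 12858063 counts for all other genes. Because of this, each member is also given on a second scale, in which the total leaves out the 10 haemoglobin genes. On that scale values are 4.63 times larger in DNCB replicate 2 and 9.09 times larger in scivMSC replicate 2, the 2 extremes among the libraries. The latter library also had the fewest detected genes, 11806, against up to 17350 in the others. Among the 36 members that were tested it was the lowest scivMSC library for 25 and the highest for 7 by FPKM.

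Summed over the 46 members, the level was 386 ± 62.1 FPKM in Solvent, 376 ± 14.1 in DNCB, 351 ± 69.6 in scMSC and 435 ± 101 in scivMSC (SD, n = 3 each). Against non-haemoglobin counts the members took 0.586% ± 0.0303, 0.582% ± 0.0546, 0.585% ± 0.0748 and 0.780% ± 0.232 of the reads in that order, with scivMSC replicate 2 at 1.04%. The groups overlapped on both scales. Behind these like sums the make-up of the set differed. Isg20, an exonuclease that degrades viral RNA, Isg15, a ubiquitin-like protein, and Rsad2, which encodes the antiviral enzyme viperin, made up most of the sum. Together they held 58.6% to 68.2% of the summed FPKM in the Solvent libraries, 48.3% to 63.3% in DNCB, 71.2% to 74.2% in scMSC and 80.6% to 89.6% in scivMSC. The scivMSC libraries lay above all others in this share and the scMSC libraries lay above all DNCB and Solvent libraries.

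In Solvent the highest levels were those of Isg20 at 117 ± 8.84 FPKM, Isg15 at 82.6 ± 18.9, Rsad2 at 41.2 ± 12.0, and Igtp at 18.6 ± 4.28 (SD, n = 3 each), with Ifi27l2a at 41.2, 23.9 and 24.8 between Rsad2 and Igtp. In this order only Rsad2 and Ifi27l2a overlapped over the 3 libraries. Irf7 at 9.13 ± 1.37 and Samhd1 at 9.02 ± 2.96 FPKM followed, and the other members had a Solvent mean under 7 FPKM. A gene was tested when it reached 1 FPKM in at least 3 of the 12 libraries, which 36 members did. No tested member reached 1 FPKM in a single group only, and 21 reached it in some library of all 4 groups. Dhx58, Cmpk2 and Ifit3b would not have passed without the DNCB libraries, where their means were highest. Gbp3 would not have passed without the Solvent libraries, where its mean was highest. Counts of members called lower than DNCB take in Dhx58, Cmpk2 and, in scivMSC, Ifit3b, and these calls are no support for a fall.

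The 10 members under this limit were Eif2ak2, Herc6, Ifi44, Ifih1, Mx1, Mx2, Oas1a, Oas1g, Oasl2 and Xaf1. Mx1 and Mx2, dynamin-like GTPases used widely as markers of type I interferon action, were low throughout. Mx1 had 67, 77 and 56 estimated counts in the Solvent libraries, 23, 38 and 20 in DNCB, 17, 10 and 21 in scMSC and 4, 7 and 0 in scivMSC. Inbred strains such as BALB/c are known to carry defective Mx1 alleles. Oas1g, one of the oligoadenylate synthetases, was at 0 in all 3 scivMSC libraries and Oas1a in all 3 scMSC libraries, with at most 31 counts elsewhere. Ifih1, the double-stranded RNA sensor MDA5, had 0.391 ± 0.0290 FPKM in Solvent, 0.664 ± 0.157 in DNCB, 0.249 ± 0.105 in scMSC and 0.108 ± 0.0136 in scivMSC (SD, n = 3 each), and the DNCB libraries were above all others. Oasl2, an OAS-like protein picked out here after its values were seen, had 0.615, 0.445 and 0.387 FPKM in Solvent, 1.48, 0.921 and 1.32 in DNCB, 0.606, 0.327 and 0.284 in scMSC and 0.393, 0.829 and 0.168 in scivMSC. Its DNCB libraries lay above all Solvent, scMSC and scivMSC libraries by FPKM. On the non-haemoglobin scale DNCB and scivMSC overlapped, with scivMSC replicate 2 at 7.533 and DNCB replicate 2 at 4.265. The kinase PKR (Eif2ak2), the ISG15 ligase Herc6, the pro-apoptotic factor Xaf1, Ifi44 and Mx2 had group means of at most 0.822 FPKM, with the scivMSC mean the lowest for each. No test was run on these 10.

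**Figure D1:**
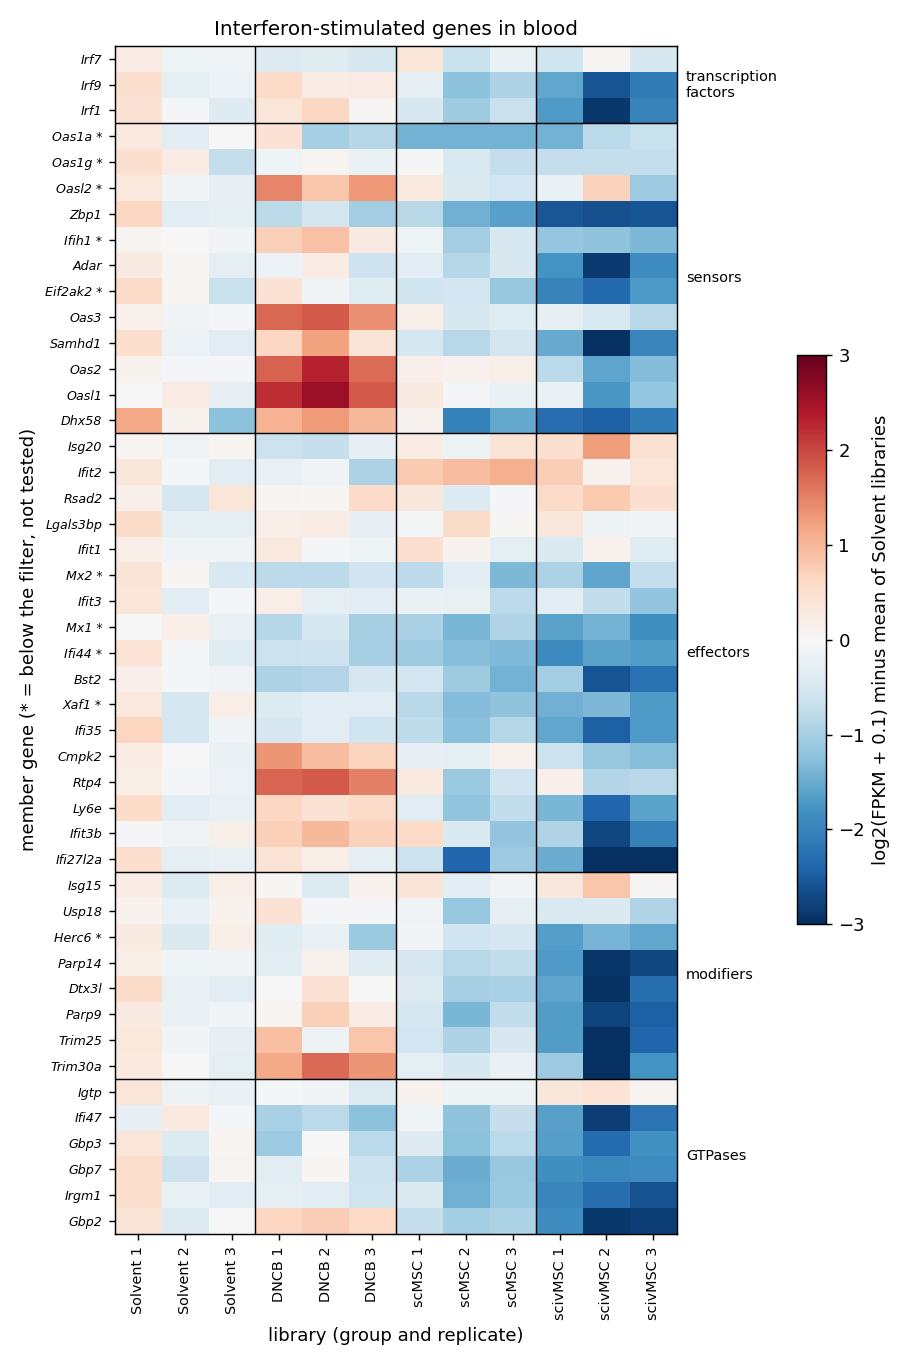
Level of each of the 46 interferon-stimulated genes (rows, grouped by role; asterisks mark the 10 not tested) in each of the 12 libraries (columns), as log2(FPKM + 0.1) minus the mean of the 3 Solvent libraries, red for higher and blue for lower. Oas2, Oas3, Oasl1, Rtp4 and Trim30a are red in the 3 DNCB libraries, and most rows are blue in the scivMSC libraries while Isg20, Isg15, Rsad2, Igtp and Ifit2 are not.

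Differences between groups were tested with edgeR's quasi-likelihood test on the estimated counts of all 5527 genes that passed the limit, and calls needed an adjusted p (Benjamini-Hochberg) under 0.05 together with a change of more than 2-fold. Log2 fold changes are followed by their standard error, and the comparisons share groups, so they are not independent of each other. Over the 4 groups at once, 28 of the 36 tested members differed at an adjusted p under 0.05, a share of 77.8% against 72.3% of all tested genes. On the non-haemoglobin scale 31 differed, 86.1% against 76.8%. Both shares were near those of blood genes in general. The 8 that did not pass on library totals were Rsad2, Irf7, Usp18, Lgals3bp, Ifit1, Isg15, Ifit3 and Igtp.

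The comparison of DNCB with Solvent asked how the skin allergen alone moved these genes in blood. Of the 36 tested members 5 rose and 0 fell, against backgrounds of 15.6% called higher and 4.87% called lower among all tested genes. The 5 are 13.9% of the members, close to the background. At an unadjusted p under 0.05 edgeR had 6 members higher and 2 lower, and DESeq2 called 1 lower. The median log2 fold change of the members was 0.10, beside 0.06 over all tested genes, and on the non-haemoglobin scale −0.04 beside −0.10. On TMM factors, which set the typical gene to no change, 5 members were higher and 1 lower, with backgrounds of 16.1% and 11.5%. The set as a whole lay near the all-gene median, and 3 of the 5 members that rose belong to the OAS family.

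Oas2 and Oas3 encode 2′-5′-oligoadenylate synthetases, which bind double-stranded RNA and make the messenger that activates RNase L. Oas2 (chromosome 5, 120730333 to 120749853, minus strand) had 1.16, 1.02 and 1.05 FPKM in Solvent, 3.92, 5.70 and 3.65 in DNCB, 1.22, 1.18 and 1.24 in scMSC and 0.574, 0.295 and 0.375 in scivMSC. The 3 DNCB libraries were above all libraries of the other groups and the 3 scivMSC libraries were below them. Its log2 fold change in DNCB against Solvent was 2.04 ± 0.35 (SE, adjusted p = 0.000494) on library totals and 1.84 ± 0.22 (adjusted p = 4.86e-05) on non-haemoglobin totals. Oas3, its neighbour on the same strand, had 1.93, 1.66 and 1.71 FPKM in Solvent, 6.08, 6.53 and 4.72 in DNCB, 1.99, 1.24 and 1.35 in scMSC and 1.45, 1.26 and 0.947 in scivMSC. Again every DNCB library exceeded every other library, while the Solvent, scMSC and scivMSC libraries overlapped in part. The log2 fold change of Oas3 was 1.71 ± 0.31 (adjusted p = 0.000730), and 1.53 on non-haemoglobin totals.

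Oasl1 encodes an OAS-like protein that is known to hold back translation of Irf7. It lies away from the OAS genes (chromosome 5, 114923240 to 114937915, plus strand) and had 1.24, 1.51 and 1.04 FPKM in Solvent, 6.15, 7.94 and 4.71 in DNCB, 1.53, 1.20 and 1.07 in scMSC and 1.05, 0.301 and 0.505 in scivMSC. The DNCB libraries stood apart, and the rise was 2.30 ± 0.44 on the log2 scale (adjusted p = 0.00128), the largest of any tested member in this comparison, or 2.09 on non-haemoglobin totals. Rtp4, a chaperone-like protein induced by type I interferon, had 1.71, 1.44 and 1.28 FPKM in Solvent, 5.14, 5.54 and 4.40 in DNCB, 1.83, 0.622 and 0.934 in scMSC and 1.66, 0.754 and 0.785 in scivMSC. Its rise was 1.76 ± 0.45 (adjusted p = 0.00975). In the deposited coordinates Rtp4 overlaps Masp1 on the other strand, and since the sources used here do not say whether strand was used in counting, reads from the pair may not be separated. Trim30a, a TRIM protein, had 3.80, 3.10 and 2.53 FPKM in Solvent, 6.91, 10.3 and 7.93 in DNCB, 2.51, 2.21 and 2.68 in scMSC and 1.41, 0.301 and 0.827 in scivMSC. It rose by 1.42 ± 0.42 (adjusted p = 0.0231), but the call was lost without Solvent replicate 2 (1.40, adjusted p = 0.0810), without Solvent replicate 3 (1.28, adjusted p = 0.0942) and without DNCB replicate 2 (1.24, adjusted p = 0.0831). All 5 genes were called higher on library totals, non-haemoglobin totals and TMM factors.

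**Figure D2:**
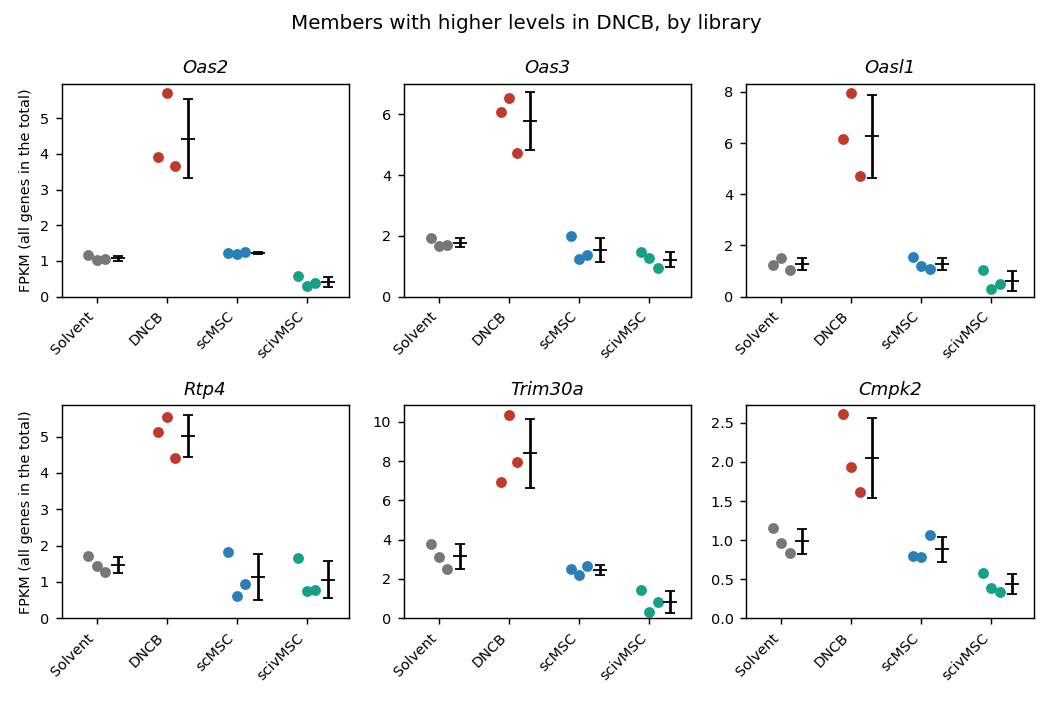
FPKM with all genes in the total (vertical axes, starting at 0) of Oas2, Oas3, Oasl1, Rtp4, Trim30a and Cmpk2 by group, with 1 point per library and the mean and SD as a black mark beside the 3 points. For all 6 genes the 3 DNCB points lie above the 3 Solvent, the 3 scMSC and the 3 scivMSC points.

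Cmpk2, a mitochondrial nucleotide kinase, named here after its values were seen, had 1.16, 0.962 and 0.831 FPKM in Solvent, 2.61, 1.94 and 1.61 in DNCB, 0.801, 0.778 and 1.07 in scMSC and 0.584, 0.387 and 0.341 in scivMSC. Its DNCB libraries also lay above all others, but the difference from Solvent was not called (1.06 ± 0.38, adjusted p = 0.0543). In all, 8 of the 36 members had DNCB libraries wholly above the Solvent libraries and 5 wholly below, 22.2% and 13.9%, beside 25% and 16.5% of all tested genes. These shares were near the background too. Of the GTPases, whose induction by interferon gamma is strong, none was called on library totals and their median was −0.41. Ifi47, an immunity-related GTPase, had 5.68, 8.35 and 6.54 FPKM in Solvent, 3.41, 3.84 and 2.81 in DNCB, 6.21, 2.86 and 4.15 in scMSC and 2.10, 0.877 and 1.39 in scivMSC. Every DNCB library lay under every Solvent library. The log2 fold change was −1.03 ± 0.38 (adjusted p = 0.0645) on library totals and −1.25 ± 0.31 (adjusted p = 0.00721) on non-haemoglobin totals, where it was called lower, with 2 members called lower in all beside 10.6% of genes and 5 called higher beside 15.3%. Ifi47 overlaps Olfr56 on the same strand.

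Zbp1, a sensor of Z-form nucleic acid that can set off cell death, had 4.11, 2.06 and 2.19 FPKM in Solvent, 1.47, 1.79 and 1.24 in DNCB, 1.44, 0.920 and 0.790 in scMSC and 0.362, 0.343 and 0.359 in scivMSC. The DNCB libraries lay under the Solvent libraries, with −0.89 ± 0.39 (adjusted p = 0.12) on library totals and −1.02 ± 0.27 (adjusted p = 0.0106) on non-haemoglobin totals. Members of the same role thus went different ways in DNCB. Among the 7 tested sensors 3 were called higher on library totals, beside 15.6% of all genes. Their median was 0.88 and the range ran from −0.89 to 2.30.

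The blood itself differed in its cell markers between these groups. All 10 of 10 neutrophil markers were called higher in DNCB, with a summed level of 221 to 445 FPKM in Solvent and 7002 to 10980 FPKM in DNCB. Of 7 tested monocyte markers 3 were called higher, while 7 of 8 T cell markers and 8 of 8 B cell markers were called lower, and 4 of 8 platelet markers were called higher. The B cell marker Pax5 reached 1 FPKM in the Solvent libraries alone, so its call among the 8 is no support for a fall. Of 4 tested NK cell markers 2 were called lower on library totals and 4 on non-haemoglobin totals. Among all tested genes 15.6% were called higher and 4.87% lower on library totals, and 10.6% lower on non-haemoglobin totals. Neutrophil sums were 579 to 721 FPKM in scMSC, above the Solvent range, and 249.9 to 745 FPKM in scivMSC. On library totals 4 of 10 neutrophil markers were called higher in scMSC than in Solvent, beside 0.326% of all genes. No listed marker with a row was at 0 in all libraries. In bulk blood, fewer cells of a type and less RNA per cell cannot be told apart, and the part of these markers in the members' values was not tested.

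The comparison of scMSC with DNCB asked what MSC under the skin changed in allergen-treated mice. Of the 36 members 1 rose and 14 fell on library totals, with 1.27% and 24.9% of all genes called in these directions. The 14 are 38.9% of the members. On non-haemoglobin totals 8 fell, 22.2% of members against 17.9% of genes, and 2 rose, 5.56% against 3.6%, which is nearer to the background. By TMM 3 were higher and 5 lower, beside 8.74% and 12.3%. The scMSC libraries lay wholly above the DNCB libraries for 2 members and wholly below for 21, 5.56% and 58.3%, beside 5.54% and 49.8% of genes. The median was −0.80 beside −0.63 over all genes, or −0.44 beside −0.25 on non-haemoglobin totals. The count of 14 was 8 without DNCB replicate 2, 7 without scMSC replicate 2 and 8 without scMSC replicate 3.

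All 5 genes that were higher in DNCB were lower in scMSC, and the scMSC libraries lay under every DNCB library for each. The log2 fold changes were −2.31 ± 0.44 for Oasl1, −2.16 ± 0.46 for Rtp4, −1.93 ± 0.31 for Oas3, −1.87 ± 0.35 for Oas2 and −1.78 ± 0.43 for Trim30a, with adjusted p between 0.000433 and 0.00576. Non-haemoglobin totals gave −1.91, −1.81, −1.55, −1.47 and −1.39 in the same order, all called, and these 5 were the members called lower with TMM factors as well. Both comparisons rest on the same 3 DNCB libraries. Set against Solvent, scMSC called 0 of the 36 members in either direction on library totals, beside 0.326% of all genes each way. At an unadjusted p under 0.05 edgeR had 1 member higher and 11 lower there, and DESeq2 called 1 higher and 0 lower. On non-haemoglobin totals 1 member was higher than Solvent and 2 were lower, beside 3.26% and 3.94% of genes.

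Gbp2, a guanylate-binding GTPase, had 5.82, 3.37 and 4.37 FPKM in Solvent, 6.91, 7.48 and 6.70 in DNCB, 2.70, 2.13 and 2.22 in scMSC and 1.14, 0.506 and 0.536 in scivMSC. The scMSC libraries lay under all DNCB and all Solvent libraries, and Gbp2 fell, with a log2 fold change of −1.59 ± 0.37 (adjusted p = 0.00474) on library totals and −1.22 ± 0.23 (adjusted p = 0.00198) on non-haemoglobin totals. Dhx58, the RNA helicase LGP2, which passed the limit only with its DNCB libraries, was also called lower, at −2.24 ± 0.71 (adjusted p = 0.0266). That call was lost without DNCB replicate 2 (−2.14, adjusted p = 0.0789), scMSC replicate 2 (−1.80, adjusted p = 0.118) and scMSC replicate 3 (−1.93, adjusted p = 0.109). Irf1, Irf9 and Trim25 were called lower on library totals at −1.11, −1.17 and −1.31, but not on non-haemoglobin totals. Irf1 lost its call without DNCB replicate 1 or 2 or any scMSC library (−1.25 to −0.96, adjusted p of 0.0538 to 0.139). Irf9 lost it without any DNCB library or scMSC replicate 2 or 3 (−1.24 to −0.97, adjusted p of 0.0507 to 0.153). Trim25 lost it without any of 9 libraries, all but DNCB replicate 2 and scivMSC replicates 1 and 2 (−1.41 to −1.14, adjusted p of 0.0515 to 0.162). Irf7 differed by 0.29 ± 0.30 and Usp18 by −0.65 ± 0.41, neither called.

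The 1 member that rose was Ifit2, a protein that binds viral RNA and blocks its translation, which was named after its values were seen. It had 3.97, 3.05 and 2.49 FPKM in Solvent, 2.69, 2.91 and 1.58 in DNCB, 5.44, 6.02 and 6.65 in scMSC and 5.29, 3.39 and 4.03 in scivMSC. All 3 scMSC libraries exceeded all DNCB and Solvent libraries. The difference from DNCB was 1.32 ± 0.33 (adjusted p = 0.00717) on library totals and 1.72 ± 0.22 (adjusted p = 0.000154) on non-haemoglobin totals. Against Solvent it was 0.92 ± 0.33 (adjusted p = 0.112) and 1.14 ± 0.21 (adjusted p = 0.00862), called on the second scale only. Isg20 was the second member called higher against DNCB on non-haemoglobin totals, at 1.02 ± 0.29 (adjusted p = 0.0163).

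In these libraries 10 of 10 neutrophil markers and 5 of 7 monocyte markers were called lower in scMSC than in DNCB on library totals, while 0 of 8 T cell, 0 of 8 B cell, 0 of 4 tested NK cell and 0 of 9 erythroid markers were called on that scale. On library totals 24.9% of all tested genes were called lower. T cell markers depended on the scale, with 2 of 8 called higher on non-haemoglobin totals and 7 of 8 with TMM factors, beside 3.6% and 8.74% of all genes. The part of these markers in the members' values was not tested.

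The comparison of scivMSC with DNCB asked the same for MSC given by both routes, and here most members fell. On library totals 26 of 36 were lower and 1 was higher, with 62% of all genes called lower and 1.43% called higher. The members' share of 72.2% is thus read against a background in which most blood genes fell relative to the total. On non-haemoglobin totals 23 were lower and 4 higher, 63.9% and 11.1% against 46.4% and 6.17%. With TMM factors 13 were lower and 8 higher, 36.1% and 22.2% against 18.9% and 20.6%. The median of the members was −2.23, −1.67 and −0.58 on the 3 scales, beside −1.53, −0.99 and 0.04 over all genes. The scivMSC libraries lay wholly below the DNCB libraries for 27 members and wholly above for 3, 75% and 8.33%, beside 67.9% and 5.41% of genes. In all, 13 members were lower and 1 was higher on all 3 scales, and 23 of 36 lay under the all-gene median on each.

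**Figure D3:**
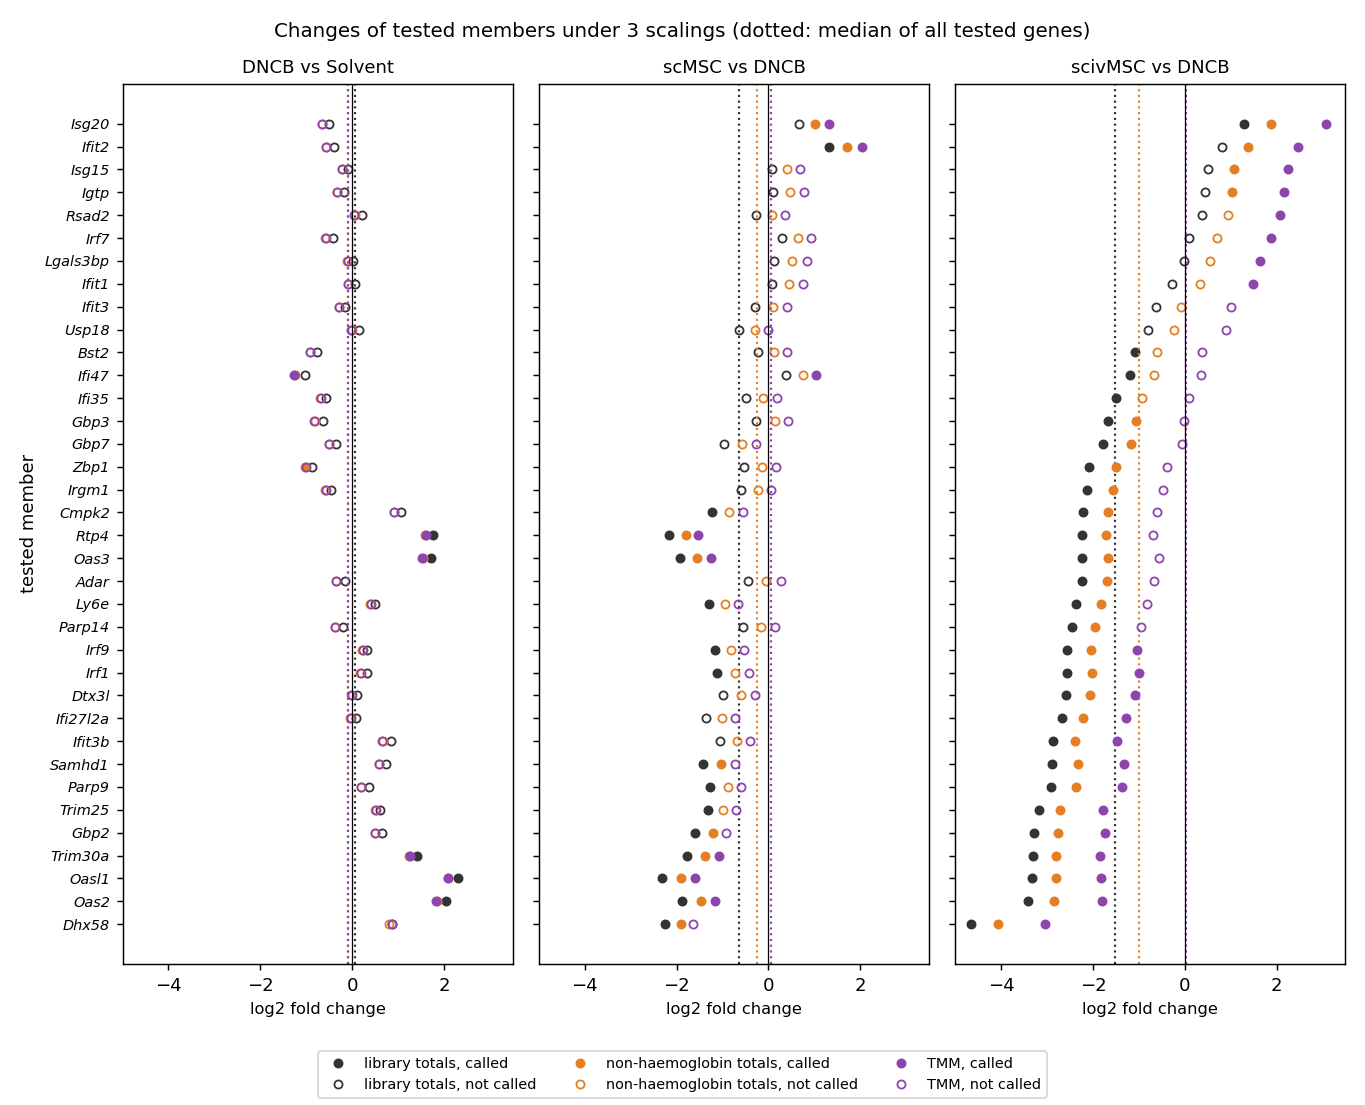
Log2 fold change (horizontal axes) of the 36 tested members (rows, ordered by scivMSC against DNCB) in DNCB against Solvent, scMSC against DNCB and scivMSC against DNCB, with libraries scaled by all counts, by non-haemoglobin counts or by TMM. Filled points are called, open points are not, and dotted lines give the median of all 5527 tested genes; in the right panel the dotted lines stand at −1.53, −0.99 and 0.04, with 23 members to the left of each.

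The 7 tested sensors were all called lower in scivMSC, with log2 fold changes from −4.64 to −2.08 on library totals. All 7 were called lower on non-haemoglobin totals too. Of all tested genes 62% and 46.4% were called lower on these scales. With TMM factors Dhx58, Oas2, Oasl1 and Samhd1 were called lower, beside 18.9% of all genes, and Oas3, Zbp1 and Adar were not. Dhx58 had the largest fall of any member, but it passed the limit only with its DNCB libraries. It had 1.59, 0.730 and 0.230 FPKM in Solvent, 1.50, 1.78 and 1.43 in DNCB, 0.733, 0.0901 and 0.168 in scMSC and 0.0598, 0.0412 and 0.0793 in scivMSC, and the scivMSC libraries held only 12, 8 and 15 estimated counts. Its log2 fold change was −4.64 ± 0.81 (adjusted p = 0.000140) on library totals, −4.07 ± 0.75 on non-haemoglobin totals and −3.03 by TMM. In the table's coordinates Dhx58 overlaps the antisense gene Dhx58os. Oas2 at −3.41 ± 0.37 and Oasl1 at −3.33 ± 0.46 came next among the sensors, with adjusted p of 4.63e-06 and 2.03e-05. For both, the scivMSC level was under that of Solvent as well, called at −1.37 ± 0.35 for Oas2 and at −1.03 ± 0.43 for Oasl1 on library totals. By TMM these last differences were 0.03 and 0.27, so their direction depends on the scaling. Oasl1 against Solvent had an adjusted p of 0.0457, and it lost the call without any single library other than Solvent replicate 3 and scivMSC replicate 1 (−1.04 to −0.70, adjusted p of 0.0532 to 0.148). Samhd1, which breaks down nucleotides, and Adar, an RNA-editing enzyme, were at −2.88 ± 0.38 and −2.25 ± 0.42. Oas3 fell less, at −2.25 ± 0.31 on the same scale, as did Rtp4 among the effectors, at −2.24 ± 0.46, while Trim30a was at −3.31 ± 0.45. Zbp1 was called at −2.08 ± 0.41 (adjusted p = 0.000361).

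The transcription factors split. Irf1, the factor behind many interferon gamma targets, had 7.41, 5.27 and 4.17 FPKM in Solvent, 7.06, 8.39 and 5.61 in DNCB, 3.86, 2.56 and 3.40 in scMSC and 1.61, 0.652 and 1.29 in scivMSC. Irf9, the DNA-binding subunit of the complex that type I interferons activate, had 3.36, 1.92 and 2.11 FPKM in Solvent, 3.60, 2.80 and 2.86 in DNCB, 1.95, 0.960 and 1.21 in scMSC and 0.743, 0.315 and 0.478 in scivMSC. For both, all scivMSC libraries lay under all libraries of the other groups. Irf1 fell with a log2 fold change of −2.57 ± 0.38 (adjusted p = 3.38e-05) and Irf9 with −2.57 ± 0.40 (adjusted p = 5.73e-05), and on non-haemoglobin totals with −2.02 and −2.05. Irf9 overlaps Rnf31 on the same strand in the table. Irf7, the factor that amplifies type I interferon production, had 10.7, 8.25 and 8.43 FPKM in Solvent, 6.89, 7.04 and 6.43 in DNCB, 11.6, 5.64 and 7.82 in scMSC and 5.99, 9.23 and 6.49 in scivMSC. Its DNCB libraries lay under the Solvent libraries, while its scivMSC libraries overlapped every other group. The difference of scivMSC from DNCB was 0.09 ± 0.30 (adjusted p = 0.809), or 0.70 ± 0.27 (adjusted p = 0.0334) on non-haemoglobin totals, below the fold limit. By TMM it was called higher at 1.88. Irf7 overlaps Phrf1 on the other strand.

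Of the 7 tested modifiers 5 fell on library totals and on non-haemoglobin totals, beside 62% and 46.4% of all genes called lower. With TMM factors Trim25, Trim30a, Dtx3l and Parp9 were called lower, beside 18.9% of all genes, Isg15 was higher and Parp14 was not called. Trim25, a ubiquitin ligase that acts on the RNA sensor RIG-I, had 3.77, 2.86 and 2.54 FPKM in Solvent, 5.68, 2.71 and 5.47 in DNCB, 1.98, 1.53 and 2.12 in scMSC and 0.881, 0.164 and 0.499 in scivMSC. Its fall against DNCB was −3.16 ± 0.49 on the log2 scale (adjusted p = 5.35e-05), and the scivMSC libraries did not overlap any other group. Parp14, an ADP-ribosyltransferase, had 2.52, 1.99 and 2.04 FPKM in Solvent, 1.70, 2.37 and 1.66 in DNCB, 1.49, 1.18 and 1.27 in scMSC and 0.599, 0.199 and 0.240 in scivMSC. Its groups did not differ beyond the threshold between DNCB and Solvent (−0.19 ± 0.38) or scMSC and DNCB (−0.55 ± 0.38), and it fell in scivMSC at −2.46 ± 0.40 (adjusted p = 7.41e-05). Dtx3l, a ubiquitin ligase, and Parp9, its partner, fell at −2.58 ± 0.44 and −2.91 ± 0.44, but the rows of this pair overlap on opposite strands. Usp18, which removes ISG15 and restrains the type I receptor, had 1.36, 1.05 and 1.36 FPKM in Solvent, 1.73, 1.21 and 1.21 in DNCB, 1.15, 0.510 and 1.01 in scMSC and 0.882, 0.891 and 0.621 in scivMSC. Its difference from DNCB was −0.80 ± 0.41 (adjusted p = 0.0930) on library totals and −0.23 ± 0.33 (adjusted p = 0.550) on non-haemoglobin totals, not called on either.

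Of the 6 GTPases 5 fell on library totals, beside 62% of all genes called lower. With TMM factors Gbp2 was called lower, beside 18.9% of all genes, Igtp was higher and the others were not called. Gbp2 had the largest change at −3.27 ± 0.39 (adjusted p = 8.07e-06), and Ifi47 the smallest of the 5 at −1.20 ± 0.38 (adjusted p = 0.0112). Ifi47 was not called on non-haemoglobin totals (−0.67), had a TMM value of 0.35 in the other direction, and was at −0.94 without scivMSC replicate 2, inside the fold limit. Irgm1, another immunity-related GTPase, was called at −2.13 ± 0.40. Among the 13 tested effectors 7 were lower and 1 higher on library totals, beside 62% and 1.43% of all genes. With TMM factors Ifi27l2a and Ifit3b were called lower, and Ifit1, Ifit2, Isg20, Lgals3bp and Rsad2 higher. Rtp4, Ly6e and Cmpk2 were not called with TMM factors. Ly6e, a membrane protein that limits virus entry, and Ifi27l2a, a mitochondrial or nuclear membrane protein, fell with −2.36 ± 0.39 and −2.67 ± 0.58. Bst2, the tetherin that holds budding virus at the membrane, was at −1.08 ± 0.46 and Ifi35 at −1.49 ± 0.43, both called on library totals and neither on non-haemoglobin totals (−0.60 and −0.93). Bst2 had an adjusted p of 0.0477 and lost its call without any single library other than scivMSC replicate 1 (−1.16 to −0.78, adjusted p of 0.0507 to 0.16). Cmpk2 was at −2.22 ± 0.39 (adjusted p = 0.000148). Cmpk2 and Ifit3b, like Dhx58, passed the limit only with their DNCB libraries. Ifit1, Ifit3 and Lgals3bp, a secreted galectin-3-binding protein, were not called, at −0.28 ± 0.37, −0.63 ± 0.44 and −0.02 ± 0.36.

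A smaller set of members did not fall in scivMSC, and it contained Isg20, Isg15 and Rsad2, the most abundant ones. Other abundant members did fall, with means in DNCB and scivMSC of 31.9 and 4.99 FPKM for Ifi27l2a and 15.05 and 2.04 for Samhd1. Isg20 (chromosome 7, 78913424 to 78920307, plus strand) had 122, 107 and 123 FPKM in Solvent, 74.9, 72.3 and 99.3 in DNCB, 137, 105 and 155 in scMSC and 162, 279 and 162 in scivMSC. The 3 scivMSC libraries were above all other libraries, with replicate 2 well above its group, and every DNCB library was under every Solvent library. Isg20 was the 1 member called higher than DNCB on library totals, at 1.28 ± 0.25 (adjusted p = 0.000322), and this passed the fold limit only with scivMSC replicate 2, since without it the value was 0.98 (adjusted p = 0.00181). On non-haemoglobin totals the group levels were 707 ± 96.0, 445 ± 123, 910.3 ± 131 and 1655 ± 776 FPKM in Solvent, DNCB, scMSC and scivMSC (SD, n = 3 each), and the log2 fold change against DNCB was 1.89 ± 0.29 (adjusted p = 0.000114).

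Isg15 (chromosome 4, 156199455 to 156200796, minus strand) had 95.1, 60.9 and 91.8 FPKM in Solvent, 82.5, 61.3 and 88.1 in DNCB, 107, 63.7 and 75.2 in scMSC and 103, 144 and 83.0 in scivMSC. The scivMSC libraries overlapped DNCB by FPKM, with a difference of 0.50 ± 0.29 (adjusted p = 0.140). On non-haemoglobin totals they did not overlap, and the difference was called at 1.08 ± 0.29 (adjusted p = 0.00534). There scivMSC replicate 2 stood at 1306 FPKM, beside 681 and 695 in its group, and no fit on this scale left it out. Rsad2 had 44.2, 28.0 and 51.5 FPKM in Solvent, 42.2, 41.0 and 59.1 in DNCB, 50.8, 29.8 and 38.9 in scMSC and 59.4, 69.2 and 55.6 in scivMSC. Its groups overlapped by FPKM at 0.37 ± 0.26 (adjusted p = 0.219), and the value on non-haemoglobin totals, 0.94 ± 0.27 (adjusted p = 0.00775), stayed inside the fold limit. Igtp, an immunity-related GTPase named after its values were seen, had 23.6, 16.4 and 15.9 FPKM in Solvent, 18.0, 17.4 and 13.8 in DNCB, 19.7, 16.5 and 16.6 in scMSC and 23.4, 24.4 and 19.3 in scivMSC. Its scivMSC libraries lay above all DNCB libraries, at 0.44 ± 0.26 (adjusted p = 0.144) on library totals and 1.03 ± 0.18 (adjusted p = 0.000330) on non-haemoglobin totals, called on the latter. On that scale scivMSC replicate 2 was again highest, at 222 FPKM beside 155 and 162 in its group, and no fit left it out. Igtp overlaps Irgm2 on the same strand, so reads may be shared between them. Ifit2 differed by 0.82 ± 0.33 (adjusted p = 0.0349), inside the fold limit, and was called on non-haemoglobin totals at 1.39 ± 0.22 (adjusted p = 0.000117). With TMM factors Isg20, Ifit2, Isg15, Igtp, Rsad2, Irf7, Lgals3bp and Ifit1 were called higher. The call of these 8 genes therefore depends on the scaling, with Isg20 the 1 called on all 3 scales.

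**Figure D4:**
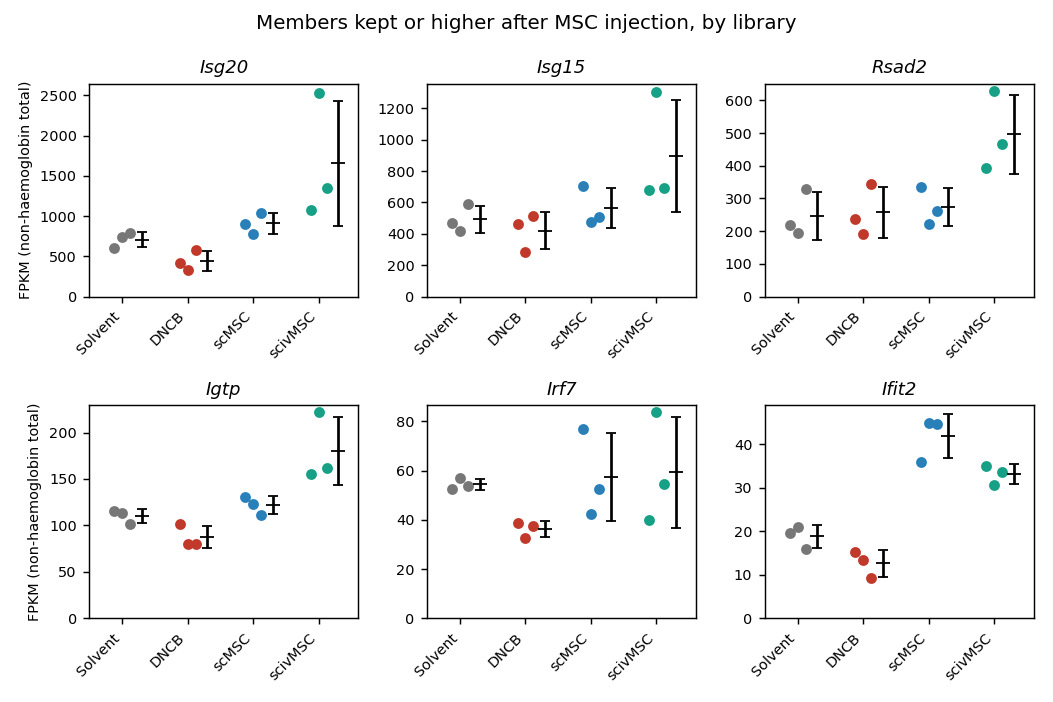
FPKM recomputed with the 10 haemoglobin genes left out of the total (vertical axes, starting at 0) of Isg20, Isg15, Rsad2, Igtp, Irf7 and Ifit2 by group, with 1 point per library and the mean and SD as a black mark. For all 6 genes the 3 scivMSC points lie above the 3 DNCB points, and for all but Ifit2 scivMSC replicate 2 is the highest point.

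In scivMSC against DNCB 10 of 10 neutrophil, 7 of 7 tested monocyte, 8 of 8 B cell, 2 of 8 T cell and 2 of 4 tested NK cell markers were called lower on library totals. On non-haemoglobin totals these counts were 10, 7, 4, 0 and 0, and with TMM factors 10, 5, 0, 0 and 0, with 1 NK cell marker then higher. Of 9 tested erythroid markers 0 were called and their median was 0.23, and 0 of 8 platelet markers were called, with a median of 0.25. On non-haemoglobin totals 3 erythroid and 2 platelet markers were called higher, with medians of 0.81 and 0.85, and with TMM factors all 9 and 7 of 8. Neutrophil and monocyte markers were thus called lower on all 3 scales, and B cell markers not with TMM factors. Among all tested genes 62% were called lower on library totals, 46.4% on non-haemoglobin totals and 18.9% with TMM factors. On the latter 2 scales 6.17% and 20.6% were called higher. The part of these markers in the members' values was not tested. The part of the haemoglobin share, highest in scivMSC replicates 2 and 3, was seen only through the change of scale.

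The last comparisons set the injection routes beside each other and against Solvent. Between scivMSC and scMSC 18 of 36 members were lower and 0 higher on library totals, 50% of members with 30.4% of all genes called lower and 0.344% called higher. The lower count was 6 without scMSC replicate 1 and 9 without scivMSC replicate 3, and it was 0 when these 6 libraries were fitted alone. The scivMSC libraries lay wholly below the scMSC libraries for 22 members and wholly above for 2, 61.1% and 5.56%, beside 46.7% and 3.82% of genes. On non-haemoglobin totals 17 were lower and 0 higher, beside 30% and 0.941%. At an unadjusted p under 0.05 edgeR had 2 members higher, and DESeq2 called 4 higher and 2 lower. Parp14 at −1.91 ± 0.39 (adjusted p = 0.00933), Trim25 at −1.85 ± 0.47 (adjusted p = 0.0140) and Dhx58 at −2.40 ± 0.76 (adjusted p = 0.0281) were the lowest, and these first 2 were the members called lower by TMM, which called 4 higher, beside 4.92% and 13.1% of genes. Dhx58 lost its call without scMSC replicate 1 (−1.09, adjusted p = 0.264), scivMSC replicate 2 (−2.20, adjusted p = 0.0628) and scivMSC replicate 3 (−2.62, adjusted p = 0.0594). The 3 highest on library totals were Rsad2 at 0.63 ± 0.26, Isg20 at 0.61 ± 0.24 and Isg15 at 0.43 ± 0.29, none called. Against Solvent 24 members were lower in scivMSC and 0 higher, 66.7% with 59.2% of all genes called lower and 2.59% called higher. At an unadjusted p under 0.05 edgeR had 2 members higher than Solvent, and DESeq2 called 9. On non-haemoglobin totals 22 were lower, 61.1% beside 49%, and 2 higher, 5.56% beside 6.21%. These 2 were Isg20 and Rsad2, at 1.22 ± 0.29 and 1.00 ± 0.27. For both, scivMSC replicate 2 was the highest library on this scale. It had 2536 FPKM for Isg20, beside 1076 and 1352 in its group, and 629 for Rsad2, beside 394 and 466. No fit on this scale left that library out.

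Many interferon-stimulated genes sit in tandem families, and 20 of the 46 lie in 7 clusters whose neighbours are within 200 kb. Rsad2 (chromosome 12, 26442746 to 26456452, minus strand) and Cmpk2 (chromosome 12, 26469204 to 26479837, plus strand) are 12752 bp apart on opposite strands, and in scivMSC against DNCB they differed in direction, at 0.37 and −2.22. In the Ifit cluster on chromosome 19 the values were 0.82 for Ifit2, −0.63 for Ifit3, −2.87 for Ifit3b and −0.28 for Ifit1. Ifit3 and Ifit3b are near copies, so reads may be split between them and neither value is certain. The guanylate-binding genes on chromosome 3 all fell, with Gbp7 at −1.78, Gbp3 at −1.66 and Gbp2 at −3.27, and so did Parp14, Dtx3l and Parp9 on chromosome 16. Of the guanylate-binding genes, Gbp3 lost its call without DNCB replicate 2 (−1.21, adjusted p = 0.0503). The tested members of the OAS cluster on chromosome 5, Oas2 and Oas3, were both called higher in DNCB than in Solvent and lower in each MSC group than in DNCB.

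The genes around the pathway were read from lists of non-members. Of 6 listed interferons other than interferon alpha, Ifnb1 and Ifng had rows and neither reached the limit for testing. Their summed level was at most 0.228 FPKM in any library. The interferon alpha genes were not counted, so nothing is said of their level. All 6 receptor chains were tested. On library totals 3 were called higher in DNCB than in Solvent, beside 15.6% of all genes, and 4 were called lower in scMSC and all 6 in scivMSC than in DNCB, beside 24.9% and 62%. With TMM factors 2 were higher in DNCB, beside 16.1%, and 3 were lower in each MSC group than in DNCB, beside 12.3% for scMSC and 18.9% for scivMSC. Ifnlr1, the receptor chain of the lambda interferons, had 0.138 ± 0.0879 FPKM in Solvent, 2.15 ± 0.652 in DNCB, 0.246 ± 0.0266 in scMSC and 0.0754 ± 0.0661 in scivMSC (SD, n = 3 each). It reached 1 FPKM in the DNCB libraries alone and so entered the test only through the group where it was high. No test value of it is given. The receptor counts take it in, and on library totals it was called in all 3 comparisons counted above. Its calls in these counts are no support for a change. Another of the receptors, Ifngr2 of the interferon gamma receptor, rose by 1.57 ± 0.41 (adjusted p = 0.0103) and Ifnar2, a chain of the type I receptor, by 1.13 ± 0.31 (adjusted p = 0.0150). Ifngr2 lost its call without Solvent replicate 2 (1.46), Solvent replicate 3 (1.36) or DNCB replicate 2 (1.32), with adjusted p of 0.0559 to 0.0618. Ifnar2 lost its call without Solvent replicate 3 (0.93, adjusted p = 0.0789) or DNCB replicate 2 (0.92, adjusted p = 0.0723).

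Among the signalling genes 6 of 8 were tested, and in DNCB only Socs3, a feedback inhibitor of cytokine receptors, was called, at 2.09 ± 0.38 (adjusted p = 0.000868). On library totals 2 of the 6 were called lower in scMSC than in DNCB and all 6 in scivMSC, beside 24.9% and 62% of all genes. With TMM factors 1 and 2 of the 6 were lower, beside 12.3% and 18.9%. Of the 12 genes that sense nucleic acid or relay to interferon production 9 were tested. On library totals 1 was lower in DNCB than in Solvent, beside 4.87% of all genes. Against DNCB 2 were lower in scMSC and 8 in scivMSC, beside 24.9% and 62%. In DNCB against Solvent 1 was higher and 3 were lower both on non-haemoglobin totals and with TMM factors. The shares of all genes were 15.3% and 10.6% on non-haemoglobin totals and 16.1% and 11.5% with TMM factors. Against DNCB, TMM factors gave 2 higher and 0 lower in scMSC and 1 higher and 3 lower in scivMSC, so the direction in scMSC depended on the scaling. Of all genes 8.74% were higher and 12.3% lower in scMSC, and 20.6% higher and 18.9% lower in scivMSC. On library totals the exception in scivMSC was Mavs, the mitochondrial adaptor of the RNA sensors, at 0.32 ± 0.42 (adjusted p = 0.512), and the 1 gene lower in DNCB on that scale was Ikbke, an interferon-inducing kinase, at −1.47 ± 0.45 (adjusted p = 0.0260), a call lost without Solvent replicate 1 or 3 or DNCB replicate 1 or 3 (−1.52 to −1.22, adjusted p of 0.0541 to 0.113). On non-haemoglobin totals the receptors called lower in scivMSC were 5 of 6, the signalling genes 4 of 6 and the sensing genes 8 of 9, beside 46.4% of all genes. Ifnlr1 is among these 5 receptors, and its call is no support here either.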

How the data were processed

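Total RNA of whole blood was sequenced in 12 libraries, each labelled with its group and replicate number, and nothing else about batch or date is given. The authors deposited a single blood table with, per gene and library, a whole-number estimated count and an FPKM value normalised to the library total with haemoglobin included. The submitters' processing notes name HISAT2 2.0, StringTie 1.3.0, Bowtie 0.12.2 and build mm8, without their order, and the strand setting is not given in the sources used here. The coordinates printed are those of the deposited table. Of the 46 members, 45 have a start within 5 kb of their GRCm38 RefSeq start, so the table's build may not be mm8. Totals ran from 52179764 to 65139421 estimated counts per library. Of all values from 1 to 12, 29% are exactly 4 and 16% exactly 8, so a fragment may be worth about 4 counts and p-values on counts may be affected, which is why counts divided by 4 were also fitted.

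From these counts edgeR 4.0.16 in R 4.3.3 was fitted to all 12 libraries with 4 group means, on genes at 1 FPKM or more in at least 3 libraries, with library totals as offsets and Benjamini-Hochberg adjustment over 5527 genes. The second scale left out the 10 genes whose symbols begin with Hba or Hbb. Each standard error is the log2 fold change divided by the square root of its F value. Alternatives were TMM, no filter, a mean FPKM of at least 5, limma 3.58.1 on log2(FPKM + 1) and log2(FPKM + 0.1), DESeq2 1.42.0, fits of 6 libraries, a replicate block and leaving out each library. Tests were run on simulated data before use. The labels give a replicate number and do not say more of the source of each library, so p-values measure the spread between 3 libraries per group.

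The members and all lists were chosen with earlier results of these data known. Library values are given for members called in DNCB against Solvent on either scale, the 5 with the largest change in each MSC group against DNCB, the 3 highest and 3 lowest between MSC groups, and Isg15, Usp18, Irf7, Irf9 and Irf1, which makes 18. Symbols that begin with Ifnar were not taken as ligands, and the interferon alpha genes were left out of the ligand counts. The values of 1 pathway gene are not reported here. No sequence is shown, since no sequence table was used here.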

Additional observations from a re-analysis of the deposited data

How the results depend on the processing

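Counts of called members moved with the scaling, the filter and the libraries fitted. With TMM factors, members called higher and lower numbered 5 and 1 in DNCB against Solvent, 3 and 5 in scMSC and 8 and 13 in scivMSC, each against DNCB, 4 and 2 between scivMSC and scMSC, 1 and 0 in scMSC against Solvent and 8 and 10 in scivMSC against Solvent. DESeq2 gave 5 and 1, 2 and 6, 8 and 13, 4 and 2, 1 and 0, and 9 and 9 in the same order. Non-haemoglobin totals gave 5 and 2, 2 and 8, 4 and 23, 0 and 17, 1 and 2, and 2 and 22. The log2 fold change of Ifi47 in scivMSC against DNCB turned to 0.35 with TMM and 0.34 with DESeq2, and against Solvent those of Oas2 (0.0295 and 0.0525), Oasl1 (0.27 and 0.29) and Cmpk2 (0.31 and 0.33) turned too. Folds taken relative to the median of all tested genes gave 2 higher and 6 lower for scMSC, 2 and 13 for scivMSC (both against DNCB), 2 lower between the MSC groups, and 1 and 8 in scivMSC against Solvent. With an adjusted p under 0.05 at any fold, 2 members were higher in scMSC and 2 in scivMSC than in DNCB, and 1 in scivMSC than in Solvent. A mean FPKM of at least 5 left 7 members (Ifi27l2a, Igtp, Irf7, Isg15, Isg20, Rsad2 and Samhd1). Of these 0 were called higher in DNCB and 0 higher and 1 lower in scMSC, relative to DNCB, 2 were lower in scivMSC against DNCB, 1 against scMSC and 2 against Solvent, and 3 differed over the 4 groups. Their median turned to 0.0725 for scMSC and 0.37 for scivMSC, both against DNCB, 0.36 between the MSC groups and 0.26 in scivMSC against Solvent, since only these abundant members remained. No filter gave 9 lower in scMSC against DNCB. With limma, log2(FPKM + 1) gave 9 lower there and 3 lower between the MSC groups, where low members are damped by the pseudocount, and log2(FPKM + 0.1) gave 1 lower in DNCB against Solvent. Fits of 6 libraries alone gave 1 lower in DNCB against Solvent, 7 lower in scMSC against Solvent and 0 lower between the MSC groups.

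When each library was left out in turn, the members called higher in DNCB against Solvent numbered 4 to 6 and those lower 0 to 1. The counts lower were 7 to 15 for scMSC and 24 to 26 for scivMSC, both against DNCB, 6 to 23 between the MSC groups, 0 to 4 in scMSC against Solvent and 22 to 24 in scivMSC against Solvent, those higher in scivMSC against DNCB were 0 to 1, and 27 to 28 differed over the 4 groups. Of 18 pairs of libraries with the same replicate number, 2 had a correlation of deviations over 0.1 (range −0.252 to 0.142). A library correlated best with its own number in 14 of 36 comparisons with another group. With 3 libraries per group this check cannot exclude pairing or a shared batch, and the labels give neither. A replicate block kept every count within 1.5 times, and a replicate block with non-haemoglobin totals gave 5 and 2 members in DNCB against Solvent, 2 and 9 for scMSC and 4 higher for scivMSC, both against DNCB, 1 and 2 in scMSC against Solvent and 2 higher in scivMSC against Solvent. The cause of these movements was not tested beyond what each setting leaves out. Low counts limit Dhx58 and the 10 untested members.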

Other observations

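A list of 45 further interferon-induced genes, none of them a member, was set beside the 46. Of these 26 were tested. In DNCB against Solvent 1 was called higher and 8 lower, with a median log2 fold change of −0.80, beside 15.6% and 4.87% of all tested genes and an all-gene median of 0.06. The members had 5 higher and 0 lower and a median of 0.10. Ifit1bl2, an Ifit-like gene, was the 1 called higher, with 0.394 ± 0.132 FPKM in Solvent and 2.72 ± 0.576 in DNCB (SD, n = 3 each). It reached 1 FPKM in the DNCB libraries alone, so it entered the test only through the group where it was high and no test of it is given. The 8 called lower were Gbp4, Gbp8, Gbp9, Tgtp1, Tgtp2, Ifi209, Mndal and Phf11b. Gbp8 likewise reached 1 FPKM in the Solvent libraries alone, so its call is no support for a fall. Ifi209 lost its call without Solvent replicate 1 or 2, DNCB replicate 1 or 3, any scMSC library or scivMSC replicate 3 (−1.22 to −0.88, adjusted p of 0.0515 to 0.15). The guanylate-binding and T cell-specific GTPases among these are known as strong interferon gamma targets. Gbp4 had 3.48 ± 1.85 FPKM in Solvent and 1.00 ± 0.148 in DNCB, and Tgtp1 had 5.97 ± 2.37 and 1.79 ± 0.123 (SD, n = 3 each), with log2 fold changes of −1.80 ± 0.39 and −1.74 ± 0.36. Tgtp1 and Tgtp2 are near copies, so their counts are uncertain. On non-haemoglobin totals 1 of the 26 was higher and 11 were lower, beside 15.3% and 10.6% of all genes. Ifit1bl2 was again the 1 higher and Gbp8 was among the 11 lower, so neither call is support for a change. The list was chosen with earlier results known. T cell and B cell markers were lower in the same DNCB libraries (7 of 8 and 8 of 8 called, beside 4.87% of all genes). Pax5, counted among the 8 B cell markers, reached 1 FPKM in the Solvent libraries alone. The part of T cell and B cell markers in these values was not tested.

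In the same list 2 genes fell and 0 rose in scMSC against DNCB, and 18 fell and 0 rose in scivMSC against DNCB, beside 24.9% and 62% of all genes called lower. Ifit1bl2 was 1 of the 2 and 1 of the 18. It entered the test only through the DNCB libraries, so its call in any count of this list is no support for a fall. With TMM factors 1 was lower and 6 were higher in scMSC, beside 12.3% and 8.74% of all genes, and 3 were lower and 3 higher in scivMSC, beside 18.9% and 20.6%. Ube2l6, the enzyme that conjugates ISG15, was the most abundant interferon-induced gene on either list. It had 596 ± 69.5 FPKM in Solvent, 575 ± 17.8 in DNCB, 583 ± 71.2 in scMSC and 588 ± 52.7 in scivMSC (SD, n = 3 each), and the groups overlapped. Its log2 fold change in scivMSC against DNCB was 0.03 (adjusted p = 0.890) on library totals. On non-haemoglobin totals it was 0.59 (adjusted p = 0.0144), inside the fold limit. Ube2l6 was named after its values were seen.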
